A study of Mus musculus with 18 samples.

Results

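miR-10a, miR-10b, miR-196a, miR-196b and miR-615 are the microRNAs encoded inside the 4 Hox gene clusters. They were followed here in mouse sperm in a study of exposure of males to ammonia (NH3) and hydrogen sulphide (H2S), in the exposed generation and the next ones. All deposited entries of these 5 names were taken, with any suffix for the arm or the gene copy. That gave 11 entries of the 1739 known miRNA entries, and 5 names of 1009 once the arms and gene copies of a name were joined. The members were chosen by name and not by their values, but with earlier results of these data known.

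The study compared 6 groups of 3 sperm libraries from ICR mice, an outbred strain. The design text says that F0 males were treated with NH3 and H2S from 3 weeks of age, over 5 weeks, and elsewhere speaks of NH3 and/or H2S. F0 NHS is taken as the treated group and F0 Con as its control. Whether each NHS male had both gases is not stated beside the label. The F1 NHS and F2 NHS males descend from the exposed males through matings with untreated females, were not exposed themselves, and are set against F1 Con and F2 Con. F1 males were mated at 8 weeks of age. The labels do not spell out NHS, and they do not say whether the libraries of a group come from separate animals or from pools. A p-value here is set against the variation among libraries, part of which may be technical. The study asked whether the exposure has effects that pass to later generations.

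Small RNA counts were complete for these miRNAs in 16 of the 18 libraries. The lists of F1 NHS replicates 1 and 3 hold 2.17% and 1.74% of their reads and stop before the miRNAs. The lists of F1 NHS 2, F2 NHS 2 and F2 NHS 3 are also cut short, but below their last miRNA. F1 NHS is thus replicate 2 alone, and its value has no replicate check of its own. The 16 libraries held 18072900 to 29430555 reads, so that 1 TPM (1 read in 1000000, with no length term) stood for 18.1 to 29.4 reads. Known miRNAs took 13.3% to 57.4% of the reads. The libraries also fall into 2 sets by their reads of a tRNA-Ala entry, with 2378 to 18720 TPM in 6 libraries and at most 621 TPM in the others. The 6 are F0 NHS 3, F0 Con 2, F1 NHS 2, F2 NHS 1 and F2 Con 1 and 2, so that in F1 the set and the exposure cannot be told apart.

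A microRNA is cut from a hairpin, and either arm of the hairpin, 5p or 3p, can be loaded into an Argonaute protein and guide it to target RNAs through its seed, bases 2 to 8. Hox genes encode the transcription factors that set position along the body axis. The miR-10 and miR-196 genes are transcribed from the same clusters, and both families are known to repress Hox mRNAs, with HOXB8 the classic target of miR-196. In the male tract Hox genes mark segments of the epididymis and vas deferens, and sperm take up small RNAs while they pass through it. In bulk samples, fewer cells of a type and less RNA per cell cannot be told apart.

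The 5p arms come in 2 pairs whose members differ by a single base, and the seed is the same within a pair. The mature sequences are from RefSeq (GRCm38.p6), written 5′ to 3′ with the seed in capitals. They are shown because they set which entries can be confused with each other.
mmu-miR-10a-5p: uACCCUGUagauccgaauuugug
mmu-miR-10b-5p: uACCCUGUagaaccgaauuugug
mmu-miR-196a-5p: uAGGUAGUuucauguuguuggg
mmu-miR-196b-5p: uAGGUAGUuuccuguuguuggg
mmu-miR-10a-3p: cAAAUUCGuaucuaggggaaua
mmu-miR-10b-3p: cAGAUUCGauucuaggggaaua
mmu-miR-196a-1-3p: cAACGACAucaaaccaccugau
mmu-miR-196a-2-3p: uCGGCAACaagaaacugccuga
mmu-miR-196b-3p: uCGACAGCacgacacugccuuc
mmu-miR-615-5p: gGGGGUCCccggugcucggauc
mmu-miR-615-3p: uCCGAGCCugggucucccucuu
Counted from 1 at the 5′ end, the change between miR-10a-5p and miR-10b-5p is U12A, and that between miR-196a-5p and miR-196b-5p is A12C. Both lie outside the seed. The seed ACCCUGU is found in 2 and the seed AGGUAGU in 2 of the 1679 mature mouse miRNAs of the RefSeq table, namely the members of each pair. The 3p arms of miR-10a and miR-10b differ by A3G, U9A and A10U, and A3G falls in the seed. The other 7 seeds each occur in 1 mature miRNA. Mature miR-196a-5p is the same from both of its genes, so its reads cannot be assigned to either. How reads with a mismatch were assigned within a pair is not given in the sources used here, and the split within each 5p pair is uncertain to that extent.

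The 6 genes lie in all 4 clusters (GRCm38 coordinates, GENCODE annotation). Mir196b is in the Hoxa cluster at chr6:52230081-52230165 on the minus strand, where it overlaps an exon of Hoxa9 and lies 1032 bp from Hoxa10. Mir196a-1 and Mir10a are in the Hoxb cluster on the plus strand. Mir196a-1, at chr11:96265164-96265265, lies between Hoxb13 and Hoxb9, and Mir10a, at chr11:96317165-96317274, between Hoxb5 and Hoxb4, at 993 bp from Hoxb4. Mir196a-2, at chr15:102973350-102973434, and Mir615, at chr15:103014926-103014990, are in the Hoxc cluster on the plus strand. No hairpin of Mir615 was listed, so its span runs from the first to the last base of its mature arms. Mir196a-2 lies between Hoxc10 and Hoxc9, within the annotated span of Hoxc5 but in none of its exons, and Mir615 in an intron of Hoxc5. Mir10b, at chr2:74726070-74726137 on the plus strand, is in the Hoxd cluster, in introns of Hoxd3 and Hoxd4 transcripts.

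All 5 miRNAs were detected in all 16 libraries, and their levels kept one order in most of them. With the arms summed, miR-10a averaged 6905 TPM, miR-10b 3534 TPM, miR-196b 1696 TPM, miR-196a 391.7 TPM and miR-615 19.7 TPM over the 16 libraries. miR-10a was above miR-10b in 16 of 16 libraries, miR-196b above miR-196a in 16 and miR-196a above miR-615 in 16. miR-10b and miR-196b were the neighbours that could not be ordered, with miR-10b higher in 13 libraries and lower in F1 NHS 2, F1 Con 2 and F2 NHS 1. The 5 miRNAs together made up 1.64% to 5.51% of the known miRNA reads. miR-10a ranked between 5 and 31 among the miRNA names of a library, and miR-615 between 191 and 296.

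**Figure D1:**
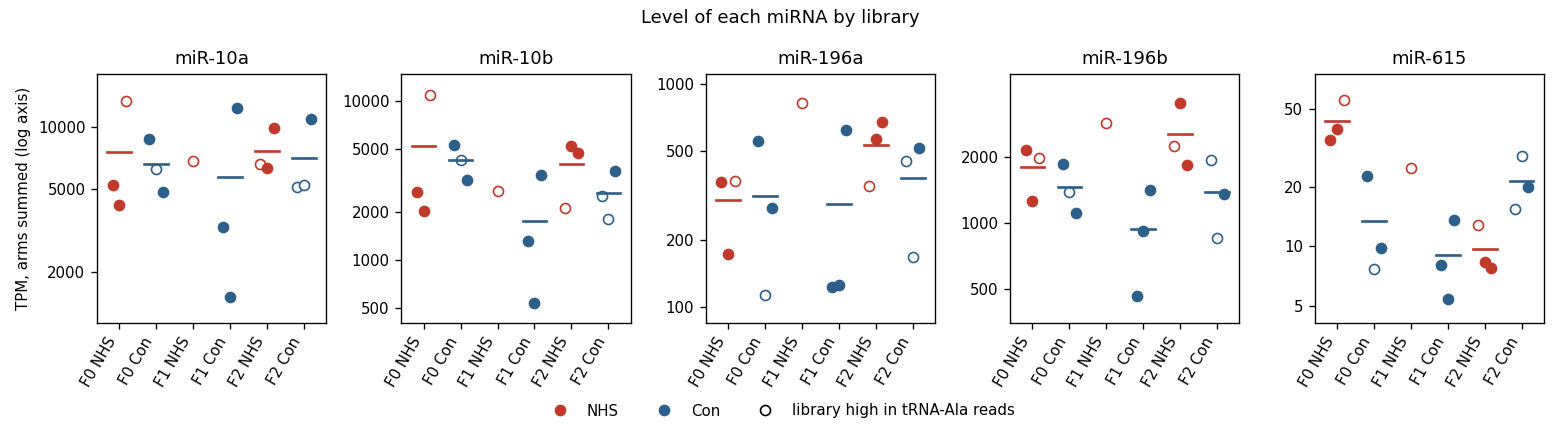
Level of each miRNA in each of the 16 libraries, in TPM with the arms summed, on a log axis; bars are group means and open circles are libraries high in tRNA-Ala reads. miR-615 is the sole panel in which the NHS libraries lie above all Con libraries in F0 (34.6 to 55.3 TPM against 7.65 to 22.7 TPM) and below all of them in F2 (7.80 to 12.8 TPM against 15.5 to 28.9 TPM).

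miR-10a, encoded beside Hoxb4, did not pass the test in any generation. In F0 it was at 5256, 4177 and 13208 TPM in NHS libraries and at 8756, 6262 and 4858 TPM in Con libraries. In F1 it was at 6854 TPM in the NHS library and at 3276, 1507 and 12336 TPM in Con libraries. In F2 it was at 6567, 6349 and 9876 TPM in NHS libraries and at 5118, 5218 and 10855 TPM in Con libraries. The groups overlap in each generation, and F0 NHS 3, F1 Con 3, F2 NHS 3 and F2 Con 3 stand above the other libraries of their groups. The log2 fold changes, NHS over Con, were 0.05 (SE 0.56) in F0, 0.05 (SE 0.79) in F1 and -0.21 (SE 0.56) in F2, with edgeR adjusted p of 0.994, 0.978 and 0.878.

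miR-10b, from the Hoxd cluster, did not pass the test either. In F0 it was at 2700, 2048 and 10950 TPM in NHS libraries and at 5317, 4270 and 3183 TPM in Con libraries. In F1 it was at 2717 TPM in the NHS library and at 1331, 535 and 3422 TPM in Con libraries. In F2 it was at 2120, 5199 and 4750 TPM in NHS libraries and at 2550, 1818 and 3627 TPM in Con libraries. F0 NHS 3 held the highest miR-10a and the highest miR-10b of all 16 libraries, and F1 Con 2 the lowest of both, and the groups overlap in each generation. The log2 fold changes were 0.11 (SE 0.60) in F0, 0.34 (SE 0.83) in F1 and 0.25 (SE 0.60) in F2, with edgeR adjusted p of 0.961, 0.877 and 0.878. miR-10a made up 54.7% to 78.3% of the reads of the pair in every library. This share averaged 62.6% ± 6.9 in NHS and 60.7% ± 1.4 in Con libraries of F0 (SD, n = 3 each), and 66.0% ± 10.4 in NHS and 72.0% ± 4.5 in Con libraries of F2. It was 71.6% in the F1 NHS library and 74.4% ± 3.6 in F1 Con libraries. The NHS and Con means differed by less than the SD of the NHS libraries in F0 and F2, but by more than that of the Con libraries. The share was not tested.

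miR-196b, the more abundant member of its pair, had a higher mean in NHS than in Con libraries in all 3 generations, without passing the test. In F0 it was at 2147, 1258 and 1969 TPM in NHS libraries and at 1861, 1384 and 1110 TPM in Con libraries. In F1 it was at 2865 TPM in the NHS library and at 465, 921 and 1414 TPM in Con libraries. In F2 it was at 2243, 3522 and 1839 TPM in NHS libraries and at 1935, 856 and 1352 TPM in Con libraries. The groups overlap in F0 and in F2, where F2 NHS 3 lies below F2 Con 1, and the F1 NHS library lies above all Con libraries. The log2 fold changes were 0.25 (SE 0.46) in F0, 1.26 (SE 0.61) in F1 and 0.61 (SE 0.46) in F2, with edgeR adjusted p of 0.846, 0.474 and 0.537. A mean over the 3 generations, a comparison chosen after these values were seen, gave a log2 fold change of 0.71 (SE 0.30). Its p was 0.0311, and adjusted over all 461 names it was 0.368 by edgeR, where 51 names (11.1%) had an unadjusted p under 0.05 and 0 (0.0%) an adjusted one; DESeq2 called 9 names, none of them a member.

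miR-196a was the lower member of its pair, at 7.53% to 30.5% of the reads of the pair. In F0 it was at 364, 172 and 367 TPM in NHS libraries and at 557, 113 and 278 TPM in Con libraries. In F1 it was at 818 TPM in the NHS library and at 123, 125 and 621 TPM in Con libraries. In F2 it was at 350, 570 and 674 TPM in NHS libraries and at 451, 167 and 517 TPM in Con libraries. The groups overlap in F0 and F2, and the F1 NHS library is the highest of all 16. The log2 fold changes were 0.00 (SE 0.59) in F0, 1.29 (SE 0.78) in F1 and 0.19 (SE 0.59) in F2, with edgeR adjusted p of 0.998, 0.603 and 0.878. Of the reads of its 3p arms, 2.12% to 83.2% were listed under the Mir196a-1 copy and the rest under the Mir196a-2 copy. That share was 18.8% to 67.4% in NHS and 4.85% to 83.2% in Con libraries of F0, and 5.02% to 76.5% in NHS and 56.6% to 77.2% in Con libraries of F2. It was 2.12% in the F1 NHS library and 8.87% to 49.9% in F1 Con libraries.

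miR-615, processed from the Hoxc5 intron, was the least abundant of the 5 and the one whose NHS and Con libraries stood apart in both F0 and F2, in opposite directions. In F0 it was at 34.6, 39.6 and 55.3 TPM in NHS libraries and at 22.7, 7.65 and 9.87 TPM in Con libraries. In F1 it was at 25.0 TPM in the NHS library and at 8.01, 5.44 and 13.6 TPM in Con libraries. In F2 it was at 12.8, 8.37 and 7.80 TPM in NHS libraries and at 15.5, 28.9 and 20.01 TPM in Con libraries. NHS was thus above Con in 9 of 9 pairs of libraries in F0 and 3 of 3 in F1, and in 0 of 9 in F2. Over all 461 names, 52 (11.3%) lay above Con in every NHS library of F0, 205 (44.5%) in F1 and 56 (12.1%) in F2, with 1, 3 and 0 of the 5 members among them. Below Con in every NHS library were 24 (5.21%), 70 (15.2%) and 22 (4.77%) names in F0, F1 and F2, with 0, 0 and 1 member. The Con groups had means of 13.4 ± 8.1 TPM in F0, 9.02 ± 4.18 TPM in F1 and 21.5 ± 6.8 TPM in F2 (SD, n = 3 each). They did not pass edgeR's test among the 3 Con groups, with an adjusted p of 0.136. F0 Con libraries overlap those of F1 Con and F2 Con, while F1 Con libraries lie below those of F2 Con.

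The log2 fold change of miR-615 was 1.65 (SE 0.52) in F0 with an edgeR adjusted p of 0.416, the fifth smallest p of 461 names. It was 1.08 (SE 0.68) in F1 with an adjusted p of 0.608, and -1.46 (SE 0.52) in F2 with an adjusted p of 0.193. The difference of the F2 and F0 effects was -3.10 (SE 0.74), with an unadjusted p of 0.000744, the fourth smallest of 461, and an edgeR adjusted p of 0.0857. It did not pass the threshold of 0.05. DESeq2, run as an alternative, gave it an adjusted p of 0.002 with a log2 difference of -3.12, and the edgeR adjusted p was 0.0323 without F2 NHS 1. Over 7 alternative settings the difference ran from -3.32 to -2.84 and the adjusted p from 0.002 to 0.106, and with 1 library left out at a time from -3.66 to -2.51 and from 0.0323 to 0.204. Without F2 NHS 1 edgeR called 30 names for this difference, against 0 with all libraries. Of the 461 names, 4 (0.868%) were above Con in every NHS library of F0 and below Con in every NHS library of F2. These were miR-204, miR-615, miR-3086 and miR-7241. The opposite pattern was found in 3 names (0.651%) and in 0 of the members.

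The 3p arm carries most of miR-615 (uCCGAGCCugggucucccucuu). It rested on 894, 1098 and 1103 reads in F0 NHS libraries and on 531, 155 and 145 reads in F0 Con libraries. In F2 it rested on 262, 173 and 191 reads in NHS libraries and on 365, 510 and 506 reads in Con libraries. The edgeR log2 fold changes of the arm were 1.74 (SE 0.60, adjusted p = 0.706) in F0, 1.04 (SE 0.78, adjusted p = 0.745) in F1 and -1.61 (SE 0.60, adjusted p = 0.323) in F2. The difference of the F2 and F0 effects was -3.34 (SE 0.85) with an edgeR adjusted p of 0.149. DESeq2 gave this arm adjusted p-values of 0.0438 in F2 and 0.00168 for the difference, the lowest values over the alternatives. The other settings reached 0.622 and 0.294, and leaving out F2 NHS 2 gave 0.732 and 0.307. The 5p arm had a positive estimate in F2, where that of the 3p arm was negative. mmu-miR-615-5p was at 2.38, 2.24 and 3.17 TPM in F0 NHS libraries and at 1.92, 0.33 and 2.13 TPM in F0 Con libraries. In F1 it was at 0.38 TPM in the NHS library and at 0.86, 0.51 and 0.35 TPM in Con libraries. F2 NHS libraries held 2.70, 1.41 and 0.46 TPM and F2 Con libraries 0.25, 0.66 and 0.65 TPM, with NHS higher in 7 of 9 pairs. Its groups are apart in F0 and overlap in F1 and F2. The edgeR log2 fold changes were 0.92 (SE 0.84, adjusted p = 0.787) in F0, -1.31 (SE 1.31, adjusted p = 0.819) in F1 and 1.37 (SE 0.86, adjusted p = 0.580) in F2.

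miR-615 was also read within the 2 sets of libraries. In the set high in tRNA-Ala reads, miR-615 was at 55.3 TPM in the F0 NHS library and 7.65 TPM in the F0 Con library, and at 12.8 TPM in the F2 NHS library and 15.5 to 28.9 TPM in the F2 Con libraries. In the other set it was at 34.6 to 39.6 TPM in F0 NHS and 9.87 to 22.7 TPM in F0 Con libraries, and at 7.80 to 8.37 TPM in F2 NHS libraries and 20.01 TPM in the F2 Con library.

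The germ cell and epithelial marker lists stood apart between the F2 groups. The summed level of the 4 germ cell miRNAs (miR-34b, miR-34c, miR-449a and miR-449c) was 0.880% to 1.27% of reads in F2 NHS libraries and 1.86% to 2.22% in F2 Con libraries. The 6 epithelial miRNAs (miR-200a, miR-200b, miR-200c, miR-141, miR-429 and miR-205) summed to 1.51% to 2.14% of reads in F2 NHS libraries and 0.624% to 0.925% in F2 Con libraries. All markers of these lists were detected, but the sums do not show how each single marker moved. Of all 461 names, 56 (12.1%) lay above Con in every F2 NHS library and 22 (4.77%) below. The groups did not overlap in the summed level of either list. The part of this in the F2 values of miR-615 and miR-196b was not tested. Smooth muscle and stroma miRNAs overlapped in F2, with 2.11% to 3.46% in NHS and 1.21% to 2.97% in Con libraries. The red blood cell, leukocyte and endothelium lists also overlapped between the F2 groups. In F0 the summed levels of all 6 marker lists overlapped between NHS and Con libraries, the germ cell list with 0.679% to 1.87% in NHS and 0.402% to 0.788% in Con libraries. In F1 the NHS library held 1.11% germ cell, 5.92% red blood cell and 3.15% smooth muscle and stroma miRNAs, against 1.28% to 2.05%, 1.66% to 3.44% and 0.593% to 1.32% in Con libraries. Known miRNAs were 38.3% of reads in the F1 NHS library and 13.3% to 32.6% in F1 Con libraries. The part of these differences in the F1 values was not tested. Con libraries also differed between F0 and F2. Germ cell miRNAs were at 0.402% to 0.788% in F0 Con and 1.86% to 2.22% in F2 Con libraries. Epithelial miRNAs were at 2.09% to 2.90% and 0.624% to 0.925%, and smooth muscle and stroma miRNAs at 6.27% to 17.0% and 1.21% to 2.97%. The red blood cell, leukocyte and endothelium lists overlapped between F0 Con and F2 Con. The part of this in the miR-615 values of F0 and F2 was not tested.

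**Figure D2:**
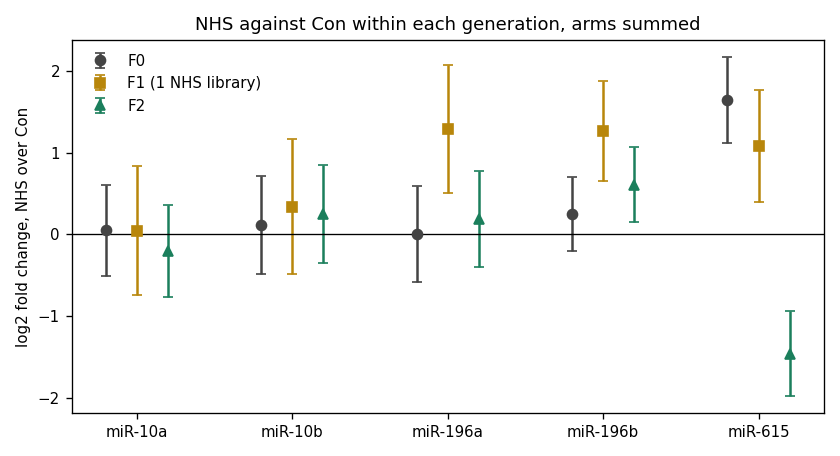
Log2 fold change of NHS over Con in F0, F1 and F2 for each miRNA with the arms summed; points are edgeR estimates and bars are 1 SE. miR-615 is at 1.65 in F0 and -1.46 in F2, and miR-10a lies within 1 SE of 0 in every generation.

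Over the 11 entries and 5 names, no member passed an adjusted p of 0.05 by edgeR in F0, F1 or F2. Nor did any other miRNA, with 0 of 735 entries (0.0%) and 0 of 461 names (0.0%) called in each. At an unadjusted p under 0.05, edgeR gave 45 entries (6.12%) in F0, 44 (5.99%) in F1 and 80 (10.9%) in F2, and 1 of the 11 members each time. These were miR-615-3p in F0 and F2 and miR-196b-3p in F1. DESeq2 called 1, 7 and 28 entries in F0, F1 and F2, of which 1 was a member, miR-615-3p in F2. Entries whose NHS libraries were all above Con were 59 of 735 in F0 (8.03%), and 2 of the 11 members, both arms of miR-615, while 35 (4.76%) and 0 members were below. In F1, where 1 NHS library is compared, they were 296 (40.3%) and 5 of the members, and 127 (17.3%) and 0 members were below. In F2 they were 86 (11.7%) and 0 of the members, while 34 entries (4.63%) and 1 member were below Con in every NHS library. For the difference of the F2 and F0 effects, 87 entries (11.8%) and 1 of the 11 members had an unadjusted p under 0.05, and 0 entries (0.0%) an adjusted one; DESeq2 called 32 entries, 1 of them a member.

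With the arms summed, the unadjusted p was under 0.05 in 39 names (8.46%) in F0, 45 (9.76%) in F1, 68 (14.8%) in F2 and 80 (17.4%) for the difference of the F2 and F0 effects, and in 1, 0, 1 and 1 of the 5 members, miR-615 each time. DESeq2 called 3, 6, 30 and 41 names in these comparisons, and 1 member, miR-615, for the difference. Without F2 NHS 1, edgeR called 17 names in F2, none of them a member. Among the 3 Con groups, edgeR gave an adjusted p under 0.05 to 45 names (9.76%) and 0 members, and an unadjusted one to 151 names (32.8%) and 1 member. Among entries, it gave 0 (0.0%) adjusted and 143 (19.5%) unadjusted, with 0 of the 11 members in either, where DESeq2 called 86 entries.

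The median log2 fold change of the 5 names was 0.11 in F0, 1.08 in F1 and 0.19 in F2, beside 0.05, -0.04 and -0.10 over all 461 names. Estimates were positive for 5 of 5 members in F0 and in F1, where 1 NHS library is compared, and for 3 of 5 in F2, beside 240, 227 and 219 of the 461 names. The signs of miR-10a, miR-10b, miR-196a and miR-196b in F0, of miR-10a and miR-10b in F1 and of miR-10a in F2 changed under other settings or with 1 library left out. The list of relatives of miR-10 by sequence (miR-99a, miR-99b, miR-100, miR-125a and miR-125b) had medians of 0.03, 0.39 and -0.15, with 0 of 5 called by edgeR in each generation. Genes of miR-99 and miR-100 are known to lie in clusters with let-7 and miR-125 genes, outside the Hox clusters.

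Single entries show how far the listed arm can shift within a group. mmu-miR-10a-5p was at 2315, 3709 and 3017 TPM in F0 NHS libraries and at 7062, 175 and 2990 TPM in F0 Con libraries, with a log2 fold change of -0.06 (SE 0.93). mmu-miR-10b-5p was at 2241, 1246 and 2308 TPM in F0 NHS libraries and at 1153, 474 and 2784 TPM in F0 Con libraries, with 0.51 (SE 0.70). mmu-miR-196a-5p was at 186, 41.6 and 95.7 TPM in F0 NHS libraries and at 212, 1.04 and 110 TPM in F0 Con libraries, with 0.14 (SE 1.346). F0 Con 2 was the lowest F0 library for all 3 entries, and the groups overlap in each. mmu-miR-196b-5p was at 747, 984 and 1426 TPM in F0 NHS libraries and at 969, 684 and 468 TPM in F0 Con libraries, with 0.50 (SE 0.68), and its groups overlap as well. In F2 mmu-miR-10a-5p was at 3011, 1250 and 2434 TPM in NHS and at 3420, 3530 and 2749 TPM in Con libraries, with -0.74 (SE 0.93). mmu-miR-10b-5p was at 1715, 3776 and 3744 TPM in NHS and at 2120, 1273 and 1008 TPM in Con libraries of F2, with 0.82 (SE 0.70). Neither passed the test, with edgeR adjusted p of 0.785 and 0.670.

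The other 3p entries showed the same width. mmu-miR-10a-3p was at 2942, 468 and 10191 TPM in F0 NHS and at 1694, 6087 and 1868 TPM in F0 Con libraries, at 2979 TPM in the F1 NHS library and at 1617, 343 and 2617 TPM in F1 Con libraries. F2 NHS libraries held 3556, 5099 and 7442 TPM and F2 Con libraries 1698, 1688 and 8106 TPM. The groups overlap in F0 and F2. mmu-miR-10b-3p ran from 405 to 8642 TPM in NHS and from 174 to 4164 TPM in Con libraries, and its groups overlap in each generation. mmu-miR-196a-2-3p ran from 42.6 to 595 TPM in NHS and from 18.8 to 328 TPM in Con libraries, with the F1 NHS library at 326 TPM above all F1 Con libraries. None of these 3 entries passed edgeR's test in any generation. mmu-miR-196a-1-3p was at 7.04 TPM in the F1 NHS library and at 29.9, 5.69 and 307 TPM in F1 Con libraries, where F1 Con 3 stands far above the rest. Its log2 fold change in F1 was -4.18 (SE 1.99), with an unadjusted p of 0.0527 and an edgeR adjusted p of 0.745, and without 1 Con library at a time it ran from -4.73 to -2.27. F2 NHS libraries held 58.8, 191 and 31.4 TPM and F2 Con libraries 339, 109 and 221 TPM, with -1.42 (SE 1.09, edgeR adjusted p = 0.655). F0 NHS libraries held 117, 88.0 and 50.9 TPM and F0 Con libraries 16.7, 93.0 and 35.9 TPM. The groups overlap in all 3 generations.

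The balance between the arms varied widely. The share of reads listed under the 5p arm ran from 2.79% to 88.8% for miR-10a, from 11.1% to 87.5% for miR-10b, from 0.854% to 59.4% for miR-196a and from 14.0% to 92.4% for miR-196b. For miR-615 it ran from 1.52% to 21.6%. Within F0 Con, miR-10a had 80.7%, 2.79% and 61.6% of its reads under the 5p arm, and miR-10b 21.7%, 11.1% and 87.5%. The same held widely: among 205 miRNAs with both arms and at least 100 reads in each library, the median range of the 5p share over the 16 libraries was 65.1 points, and 125 of them (61.0%) had a range over 50 points. Of the 20 with a range under 1 point, all 20 had a median 5p share under 1%. How reads were assigned to arms is not given in the sources used here.

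**Figure D3:**
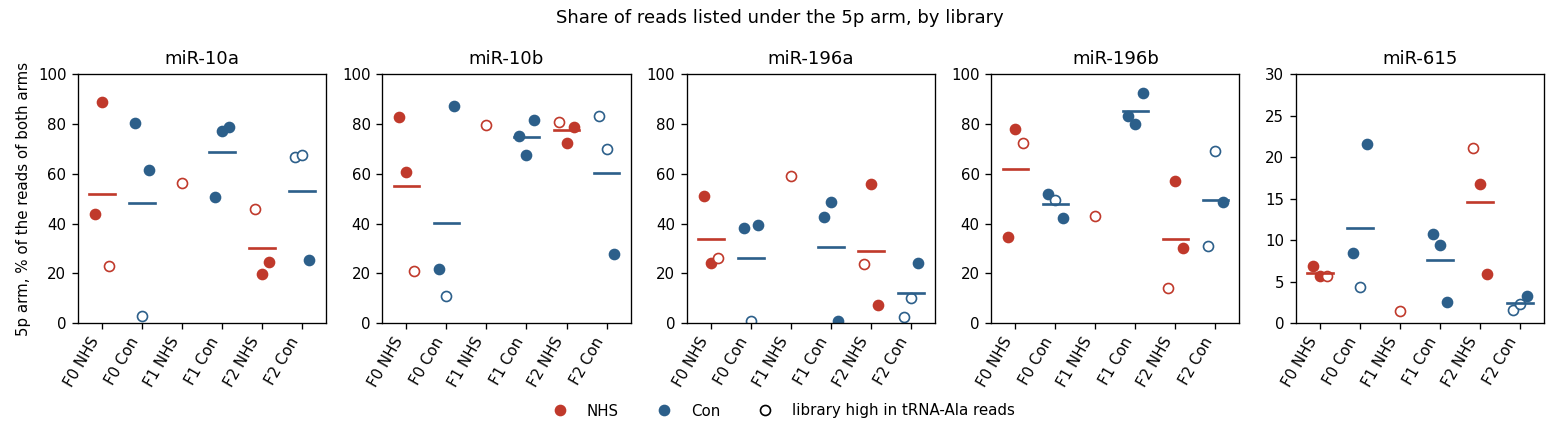
Share of each miRNA's reads listed under its 5p arm in each library, in percent of the reads of both arms; bars are group means, open circles are libraries high in tRNA-Ala reads, and the axis of miR-615 ends at 30%. The 3 F0 Con libraries of miR-10a lie at 80.7%, 2.79% and 61.6%, while miR-615 stays between 1.52% and 21.6%.

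Most single arms spread more within a group than their sum. The pooled SD of log2 TPM within groups was 1.49 for miR-10a-5p, 1.44 for miR-10a-3p and 0.87 for their sum. It was 2.36 for miR-196a-5p and 0.95 for miR-196a with all entries joined. For miR-196b it was 0.79 and 0.82 for the arms and 0.56 for the sum. miR-615-3p had 0.57 and the miR-615 sum 0.56. The medians over miRNAs of at least 100 TPM were 1.31 for 208 entries and 0.76 for 152 names. miR-196b and miR-615 thus spread less than the median of these names, and miR-10a, miR-10b and miR-196a more. miR-615 averaged 19.7 TPM and is not among these names, so it was not compared with names of its own level.

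**Figure D4:**
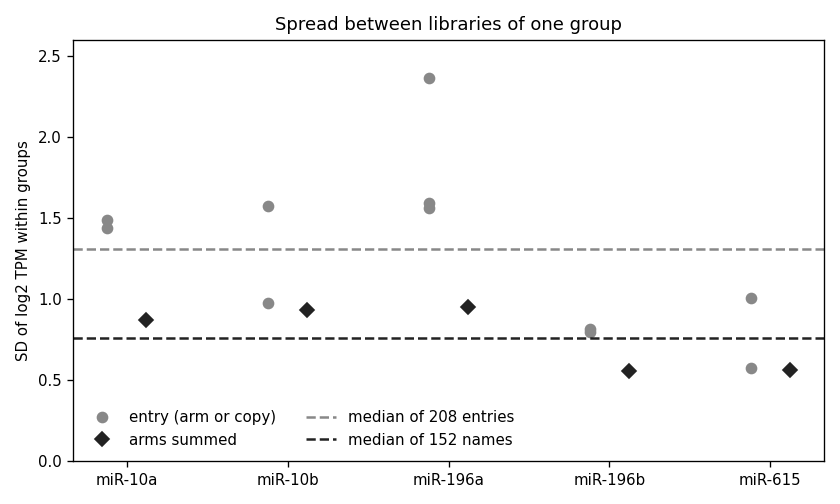
Spread between libraries of one group, as the pooled SD of log2 TPM within groups, for each entry (grey circles) and for the summed arms (black diamonds); dashed lines are the medians of 208 entries and 152 names. The sums of miR-10a, miR-10b, miR-196a and miR-196b lie below all of their own entries, and miR-615 at 0.56 lies beside its 3p arm at 0.57.

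The 5p arms were also joined by seed, since a seed is what a pair has in common. The 2 miRNAs with the seed ACCCUGU summed to 4945 ± 385 TPM in NHS and 4879 ± 3862 TPM in Con libraries of F0, to 6044 TPM in the F1 NHS library and 5567 ± 6046 TPM in F1 Con libraries, and to 5310 ± 767 TPM in NHS and 4700 ± 896 TPM in Con libraries of F2 (SD, n = 3 where an SD is given). The 2 with the seed AGGUAGU summed to 1160 ± 317 TPM in NHS and 815 ± 322 TPM in Con libraries of F0. In F1 they summed to 1724 TPM in the NHS library and 850 ± 439 TPM in Con libraries, and in F2 to 1111 ± 1061 TPM in NHS and 668 ± 102 TPM in Con libraries. The libraries of the groups overlap in F0 and F2 for both seeds. These sums hold only reads listed under the 5p arm, whose share varied widely between libraries of a group. In F0 Con libraries the ACCCUGU sum ran from 649 to 8215 TPM. With both arms, miR-10a and miR-10b together ran from 8041 to 14073 TPM there. How far the arm listing sets the seed sums was not tested.

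The arm balance did not pass the test for any member either. It was tested on the log2 ratio of 5p to 3p reads with limma over 362 miRNAs, which called 0 (0.0%) in F0, F1 and F2, with 16 (4.42%), 17 (4.7%) and 31 (8.56%) at an unadjusted p under 0.05. For miR-615 the 5p share was 6.88%, 5.67% and 5.73% in NHS and 8.45%, 4.32% and 21.6% in Con libraries of F0. It was 1.52% in the F1 NHS library and 10.7%, 9.38% and 2.59% in F1 Con libraries. In F2 it was 21.1%, 16.8% and 5.91% in NHS libraries and 1.62%, 2.30% and 3.25% in Con libraries. All F2 NHS libraries were above all F2 Con libraries, as in 21 of the 362 miRNAs (5.8%), with 1 of the 5 members among them. In F1 the 5p share of the NHS library was above all Con libraries in 92 miRNAs (25.4%), with miR-196a as the 1 member, and below in 74 (20.4%), with miR-196b and miR-615 as the 2 members. In F0, 18 miRNAs (4.97%) were above and 14 (3.87%) below, and in F2 22 (6.08%) were below, with 0 members in each. The log2 change of the ratio of miR-615 was 2.63 (SE 1.03) in F2, with a limma adjusted p of 0.431, and -0.73 (SE 1.03, adjusted p = 0.960) in F0. The difference of these effects was 3.36 (SE 1.45, limma adjusted p = 0.650), where 22 miRNAs (6.08%) and 1 member had an unadjusted p under 0.05 and 0 (0.0%) an adjusted one. Among the 3 Con groups, 1 miRNA (0.276%) had an adjusted p under 0.05 and 0 members, and 33 (9.12%) an unadjusted one, with 1 member, miR-196b. The 5p arm of miR-615 had 6 to 70 reads per library, so single shares are coarse.

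For miR-196b the 5p share was 43.2% in the F1 NHS library and 83.1%, 80.0% and 92.4% in F1 Con libraries. mmu-miR-196b-3p (uCGACAGCacgacacugccuuc) was at 1627 TPM in that NHS library and at 78.5, 184 and 107 TPM in the Con libraries, and the 5p arm at 1238 TPM and at 386, 737 and 1307 TPM. The NHS library lay above all Con libraries for the 3p arm and among them for the 5p arm. Its log2 fold change in F1 was 3.10 (SE 0.95), with an unadjusted p of 0.00548, the third smallest of 735 entries, and an edgeR adjusted p of 0.745. In F2 the 3p arm was at 1929, 1511 and 1281 TPM in NHS libraries and at 1338, 262 and 692 TPM in Con libraries, with a log2 fold change of 0.93 (SE 0.75, adjusted p = 0.665). In F0 it was at 1401, 274 and 543 TPM in NHS libraries and at 892, 701 and 642 TPM in Con libraries. The groups overlap in F0 and F2. The log2 change of the 5p to 3p ratio of miR-196b was -3.03 (SE 1.58, limma adjusted p = 0.841) in F1.

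Likeness over the 16 libraries was measured as the mean absolute difference of log2(TPM + 1), each miRNA centred on its own mean, among names of at least 100 TPM. It is a description, and the libraries share depth and composition across all miRNAs. miR-10a was most alike to miR-574 (0.38), miR-10b (0.40) and miR-672 (0.42), beside a median of 0.77 over the 151 names compared. miR-10b was most alike to miR-28a (0.35), miR-10a (0.40) and miR-1839 (0.41). The miR-196 pair did not show this: miR-196a was most alike to miR-467e (0.49), let-7f (0.51) and let-7c (0.52), and miR-196b to miR-191 (0.44), miR-429 (0.47) and miR-28a (0.47). miR-615 was most alike to miR-128 (0.43), miR-191 (0.55) and miR-151 (0.56). A miRNA at a constant level would differ by 0.56 from miR-10a, 0.70 from miR-10b and 0.80 from miR-196a. From miR-196b it would differ by 0.55 and from miR-615 by 0.79, so part of the likeness may be a low spread.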

How the data were processed

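Small RNA of sperm was sequenced in 18 libraries. The authors deposited 1 table in which each library has its own list of small RNAs, with whole-number read counts and TPM values per the file headers. The deposited TPM equals the count divided by the library total, times 1000000, with no length term, and where a list is cut short its total was taken from that relation. The build was mm10, per the submitters' processing notes, and no source used here names the aligner, the counter or the filters.

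Counts of known miRNA entries were fitted with edgeR 4.0.16 (R 4.3.3; TMM scaling, quasi-likelihood test, group means in 1 model over 16 libraries, Benjamini-Hochberg adjustment over all features). Entries needed at least 1 CPM of the library total in at least 3 libraries, which left 735 entries and 461 names. All 11 members passed. The log2 ratio of the arms, (5p + 0.5)/(3p + 0.5), was tested with limma 3.58.1 for names with at least 20 reads on the mean. All tests were two-sided with a threshold of 0.05. The edgeR and limma tests of F0 and F2 were also run on simulated data with changes planted in F0 NHS. The tests of F1, of the difference of the F2 and F0 effects, of the mean and among the Con groups were not simulated, nor was DESeq2. DESeq2 1.42.0, other scalings, no filter, a replicate block, a term for the 2 library sets, single generations and leaving out each library were tried as alternatives. The lone F1 NHS library is assumed to vary like the other groups. The comparisons of different generations share no control samples, but all use 1 estimate of spread.

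The members, the marker and relatives lists and the rules for naming were chosen with earlier results of these data known. All entries matched by name are described. The 3 most alike miRNAs per member were named by the smallest mean absolute difference of centred log2(TPM + 1). No molecular identifiers are reported, so a read is not a counted molecule. The numbers of the replicates were not taken to pair the libraries in the main fit. The correlation of same-numbered deviations was 0.30, -0.51 and -0.48 in F0 and 0.11, -0.01 and 0.27 in F2. These deviations are from means of 3 libraries, so the values cannot exclude a pairing.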

Additional observations from a re-analysis of the deposited data

Results flagged for a closer look

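miR-615 moved in opposite directions in different generations. Every NHS library was above every Con library in F0 and below every Con library in F2, and the difference of the F2 and F0 effects was -3.10 on the log2 scale with the arms summed (edgeR adjusted p = 0.0857) and -3.34 for miR-615-3p (edgeR adjusted p = 0.149). Neither passed the threshold, and 4 of 461 names (0.868%) show the same pattern. Between F1 and F2 the direction also differed, with F2 log2 fold changes of -1.46 for the sum and -1.61 for miR-615-3p. The single F1 NHS library was above all F1 Con libraries, as in 205 of 461 names (44.5%) and 296 of 735 entries (40.3%). The difference between F1 and F2 was not tested. The 5p share of miR-615 was below all Con libraries in the single F1 NHS library, as in 74 of 362 miRNAs (20.4%). It was above all Con libraries in the F2 NHS libraries, as in 21 miRNAs (5.8%), with a log2 change of the 5p to 3p ratio of 2.63. This difference between F1 and F2 was not tested either. Groups of 3 libraries were not searched for single outlying libraries.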

How the results depend on the processing

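Under the alternatives, the names with arms summed were followed in F0, F1, F2 and the difference of the F2 and F0 effects. Of the single entries only a chosen part was followed, without miR-10a-3p, miR-10b-3p and miR-196a-2-3p. The arm ratio was followed for miR-196b and miR-615 alone, and the mean over generations for miR-196b alone. Of the values followed, 536 kept their direction and their side of the threshold, 49 changed sign and 4 passed the threshold. The 4 are miR-615-3p in F2 and in the difference of the F2 and F0 effects, and miR-615 in that difference, by DESeq2, and miR-615 in the difference without F2 NHS 1 (-3.55, edgeR adjusted p = 0.0323). The sign changes were all of estimates smaller than their SE. For miR-10a in F0 the log2 fold change was -0.19 with the replicate block and -0.22 in the libraries low in tRNA-Ala reads alone, an alternative chosen after seeing the data. For miR-10b in F0 these were -0.18 and -0.53. For miR-196a in F0 it was -0.070 with library totals, -0.0030 with no filter, -0.064 with that generation alone and -0.32 in the libraries low in tRNA-Ala reads. For miR-10a in F1 it was -0.091 by DESeq2, -0.091 with DESeq2 size factors, -0.18 with a term for the library sets and -0.28 with that generation alone, and for miR-10b in F1 -0.0053 with that term. For miR-10a in F2 it was 0.11 with library totals and 0.014 with no filter. In the difference of the F2 and F0 effects it was 0.026 for miR-10a with the replicate block and -0.070 for miR-196a with the term for the library sets. For miR-10a-5p in F0 it was 0.39 with the replicate block and 0.025 with the term for the library sets, and for miR-196a-5p in F0 -0.0016 with library totals and -0.30 in the libraries low in tRNA-Ala reads. Scaling to library totals moved the median log2 fold change of all names to 0.38 in F1 and 0.23 in F2.

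Leaving out 1 library at a time gave, in F0, -0.46 to 0.34 for miR-10a, -0.81 to 0.49 for miR-10b, -0.35 to 0.70 for miR-196a and -0.088 to 0.48 for miR-196b, and for single arms -0.61 to 1.13 for miR-10a-5p, -0.69 to 1.25 for miR-196a-5p and -0.013 to 0.64 for miR-196b-5p. In F1 it gave -0.43 to 0.60 for miR-10a and -0.13 to 0.62 for miR-10b, and in F2 -0.41 to 0.15 for miR-10a. In the difference it gave -0.54 to 0.26 for miR-10a, -0.24 to 1.08 for miR-10b, -0.51 to 0.54 for miR-196a and -3.66 to -2.51 for miR-615 (adjusted p 0.0323 to 0.204). The number of names called ran from 0 to 17 in F2 (17 without F2 NHS 1), from 0 to 30 in the difference (30 without F2 NHS 1, 12 without F0 NHS 3 and 1 without F0 Con 2), from 0 to 1 for the mean over generations and from 15 to 34 among the Con groups, and for the arm ratio among the Con groups from 0 to 1.

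The count of called entries was 1 in F0, 7 in F1, 28 in F2, 32 for the difference and 86 among the Con groups by DESeq2. With no filter it was 3 in F2, 5 for the difference and 38 among the Con groups, with library totals 23 among the Con groups, and with the term for the library sets 1 in F0, 1 in F1 and 1 among the Con groups. The count of called names by DESeq2 was 3 in F0, 6 in F1, 30 in F2, 41 for the difference, 9 for the mean and 117 among the Con groups. With no filter it was 4 in F2, 9 for the difference and 70 among the Con groups. With library totals it was 4 for the mean and 88 among the Con groups. With the term for the library sets it was 1 in F0, 1 in F1, 1 for the difference and 1 for the mean. It was 1 in F1 with that generation alone, and in the libraries low in tRNA-Ala reads 1 in F2 and 0 among the Con groups. With the replicate block it was 17 among the Con groups, and the block moved no member past the threshold. For the arm ratio among the Con groups the count was 0 with a pseudocount of 5, a minimum of 100 reads, the replicate block, the term for the library sets and the libraries low in tRNA-Ala reads. The cause of these changes was not tested.

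Depth does not limit miR-10 and miR-196b, but the 5p arm of miR-615 rests on 6 to 70 reads. With 1 usable F1 NHS library, F1 values have no replicate check, and the arm assignment limits every statement on single arms.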

Other observations

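Of the predicted miRNA precursors deposited by the authors, 12 lie inside the 4 Hox clusters, and 10 of these were listed at under 1 TPM or not listed in each of the 18 libraries. The most abundant, at chr15:103014853-103014925 on the plus strand, ends 1 base before the first base of miR-615-5p. It had 326 reads in all and at most 4.39 TPM, with mean levels of 0.65 TPM in NHS and 0.233 TPM in Con libraries of F0, and 1.64 TPM in NHS and 0.51 TPM in Con libraries of F2. The lists of F1 NHS 1, 2 and 3 and of F2 NHS 2 and 3 are cut short. A precursor not listed there may be missing through the cut, and it counted as 0 TPM in the means.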
